A study of Rattus norvegicus with 15 samples.

Results

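Transcript abundance in the abdominal aorta of neferine-treated spontaneously hypertensive rats was compared with that of untreated normotensive rats, and the differences were set beside those of untreated hypertensive rats. The comparison took 10 of the 15 libraries of the series: 5 from SHR rats given neferine at 10 mg/kg per day for 10 weeks (SHR+Nef, replicates 1, 2, 4, 5 and 6) and 5 from WKY rats given double distilled water for 10 weeks (WKY). The other 5 libraries came from SHR rats given the same water for 10 weeks (SHR), and they served to say which differences were there without neferine. All 3 groups are whole abdominal aorta, from which ribosomal RNA was depleted before sequencing. The labels name strain and treatment but no age. No group of WKY rats given neferine is among the samples, so the difference between SHR+Nef and WKY combines strain and treatment. The labels and the identifiers are those of rats, although the series text speaks of mice.

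SHR is an inbred strain that develops high blood pressure without intervention, and WKY, derived from the same Wistar colony, is its usual normotensive control. The strains differ at many places in the genome besides those that bear on blood pressure, so a transcript can differ between them through inherited sequence alone. Neferine is an alkaloid of the lotus seed embryo that has been studied as a vasodilator. The wall of the aorta is mainly smooth muscle and elastic matrix, lined by endothelium and wrapped in connective and fat tissue, and the abundance of a transcript in a bulk sample reflects both how many cells of a kind are present and how much each makes: these cannot be told apart here.

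The deposited values were read as a signal, an abundance per transcript on a linear scale whose name and read depth the files do not give. An identifier is either an Ensembl rat transcript or an isoform assembled from the reads and written MERGE, locus, isoform. The files do not pair these identifiers with gene names, and 0 of the Ensembl identifiers were found in the RefSeq gene table used here. Features are therefore given by identifier, the roles of the genes are not stated, and the aorta label could not be checked against smooth muscle or endothelial markers.

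The WKY and SHR files listed 41871 transcripts and the SHR+Nef files 41162, with 39097 in common. The 2774 transcripts listed for WKY and SHR alone had an SHR mean of at most 0.499836 and a WKY mean of at least 0.50002. Every transcript in common had an SHR mean or an SHR+Nef mean of at least 0.500066. A transcript expressed in WKY with an SHR mean under 0.5 was therefore among those in common only when its SHR+Nef mean was higher than that. The summed abundance per library lay between 496460 and 565896 in 12 libraries, reached 634078 in WKY replicate 1 and 625123 in WKY replicate 2, and was 746274 in SHR replicate 4. SHR replicate 4 also had 8259 of the common transcripts at 0, against 2560 to 3739 in the other 14 libraries. It enters only the SHR values below. Without it, the SHR against WKY comparison below called 335 transcripts and 187 locus sums in place of 298 and 169, and SHR+Nef against SHR called 2 transcripts in place of 7. The labels give each library as a rat of its group and nothing on batches.

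At the transcript level, 415 of the 25051 transcripts tested differed between SHR+Nef and WKY, which is 1.66% (limma on log2(value + 1), Benjamini-Hochberg adjusted p under 0.05). Of these, 254 were higher in SHR+Nef (1.01% of those tested) and 161 were lower (0.643%). Transcripts not listed in both sets of files could not be tested, so the balance of directions depends on the listing. In SHR against WKY it was 121 higher and 177 lower as listed there. Over transcripts listed for all 15 libraries it was 103 higher and 75 lower. The median size of the difference among the 415 was 1.33 on the log2 scale, against 0.21 over all transcripts tested. For 413 of the 415 transcripts the 5 SHR+Nef values lay wholly outside the range of the 5 WKY values. Over all transcripts tested, 4.23% had such separate groups. The call was made on these same values and nearly implies separate groups and a larger difference, so neither is an added trait. The median difference over all tested transcripts was 0.03.

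The untreated strain differences were then looked up in SHR+Nef. Between SHR and WKY, 298 of 24615 transcripts were called (1.21%), with 121 higher in SHR (0.492%) and 177 lower (0.719%). Of the 298, 195 could be tested in SHR+Nef against WKY, and 155 of them were called there in the same direction. That is 52.0% of all strain differences, 79.5% of the testable ones and 37.3% of the differences between SHR+Nef and WKY. No transcript was called in opposite directions. Both comparisons use the same 5 WKY libraries, so a chance deviation of WKY enters both, and no test of the overlap was made. The count was 102 without WKY replicate 3 and likewise 102 without WKY replicate 4, and 179 without SHR replicate 4.

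Which strain differences could be tested depended on the SHR+Nef values themselves, so the share of the testable ones is not a rate of persistence. Of the 177 transcripts lower in SHR, 66 had an SHR mean of at least 0.5 and were all tested, and 57 of these persisted (86.4%). The other 111 had an SHR mean under 0.5. Of these, 86 were not listed for SHR+Nef, and the 25 tested ones, which had to have a higher SHR+Nef mean to be listed, comprised 7 that persisted and 18 that did not. Of the 121 transcripts higher in SHR, 104 were tested and 91 persisted (87.5% of those tested). The WKY means of the 86 unlisted transcripts ran from 1.23 to 19.3 with a median of 2.74, and 24 of them were at 0 in all 5 SHR libraries. The remaining 17 of the 103 untested strain differences were higher in SHR and reached the required value of 1 in fewer than 5 of the 10 libraries of SHR+Nef and WKY. The SHR+Nef and WKY values of 12 of these 17 did not overlap, and 0 of the 17 were called between SHR+Nef and SHR (limma, smallest adjusted p = 0.841).

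**Figure D1:**
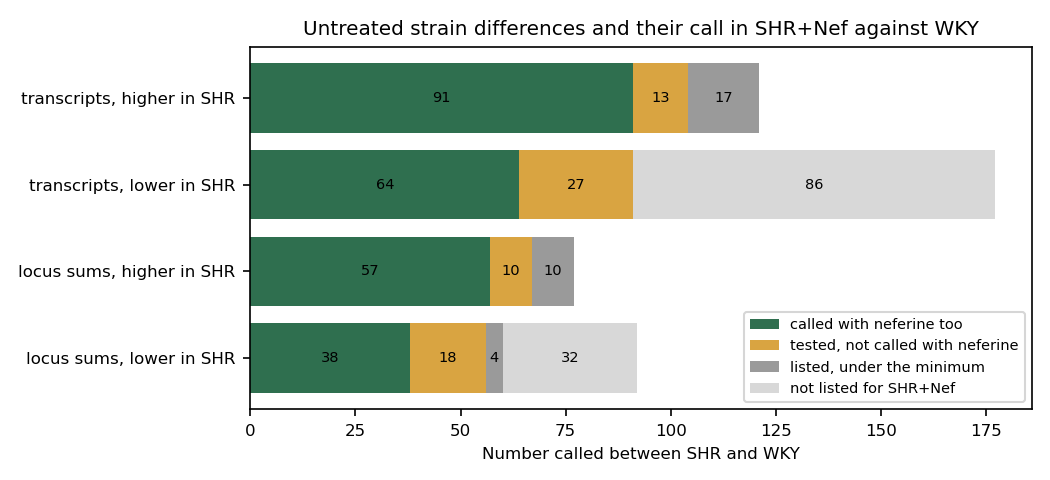
Stacked bars give the number of transcripts and of locus sums called between SHR and WKY (x axis, count), separately for those higher and those lower in SHR, coloured by their outcome in SHR+Nef against WKY. The 86 transcripts and 32 loci not listed for SHR+Nef were all lower in SHR, and the part called again with neferine held 91 and 64 transcripts and 57 and 38 loci.

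The 155 persisting transcripts comprised 91 that were higher and 64 that were lower in both SHR groups than in WKY. For 154 of the 155, the 10 SHR and SHR+Nef values lay together on 1 side of the WKY range. Each comparison alone had groups that did not overlap in 2.95% (SHR and WKY) and 4.23% (SHR+Nef and WKY) of all transcripts tested. No background was computed for both together. A call nearly implies separate groups, as in 294 of the 298 called between SHR and WKY, so the 154 is no added trait. The higher transcripts had a median difference between SHR+Nef and WKY of 2.03 and a range of 0.75 to 7.62 on the log2 scale. In 17 of the 91 the difference was above 3, in 65 it lay between 1 and 3, and in 9 it was below 1. Of the 91, 8 were listed at 0 in all 5 WKY libraries and 42 stayed under 1 in every one of them. Such a transcript could be tested only with all 5 SHR+Nef values at 1 or more. For these 42, separate SHR+Nef and WKY groups therefore followed from the required minimum. The other end was also represented, since 21 had a value of at least 1 in every WKY library, and the SHR+Nef mean reached 10 or more in 35.

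The 64 lower transcripts had a median difference of -1.60 and sizes from 0.64 to 6.83. In 3 the size was above 3, in 50 between 1 and 3, and in 11 below 1. Of these 64, 1 was listed at 0 in all 5 SHR+Nef libraries and 13 were under 1 in each of them. These 13 could be tested only with all 5 WKY values at 1 or more, so their separate groups followed from the required minimum. A value of at least 1 was kept in every SHR+Nef library by 31. The 86 strain differences that were not listed for SHR+Nef are not in this count. Transcripts with means under 0.5 in both SHR groups were not among those in common, whereas absence in WKY did not prevent listing. The counts near absence therefore cannot be compared between the directions.

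**Figure D2:**
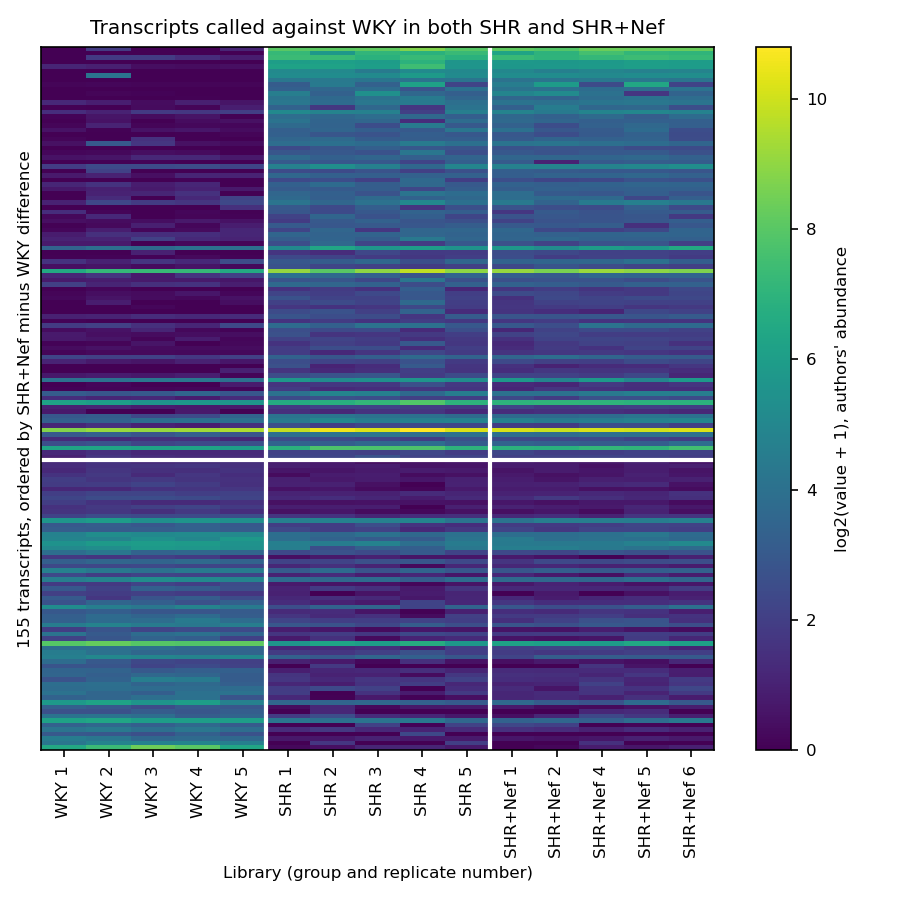
Heat map of the 155 transcripts called against WKY in both SHR and SHR+Nef, with 1 row per transcript ordered by the SHR+Nef minus WKY difference, 1 column per library, and colour for log2(value + 1). The 91 rows above the white line are brighter in the 10 SHR and SHR+Nef columns than in WKY and the 64 rows below it darker. SHR 4 differs from its group in several rows.

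Treated and untreated SHR were also compared directly in these transcripts, which were chosen for differing from WKY in the same direction in both. A small difference between the SHR groups is favoured by that choice, so the values that follow are a description. Of the 155, 132 could be tested between SHR+Nef and SHR, and limma called 0 of them (smallest adjusted p = 0.841), against a background of 0.0283% (7 of 24778). The difference between SHR+Nef and SHR ran from -0.67 to 0.69 with a median size of 0.14, beside 0.24 over all transcripts tested in that comparison. The median size against WKY was 1.84 for SHR+Nef and 1.89 for SHR. The SHR+Nef and SHR values of 1 of the 132 did not overlap, against 1.13% of all transcripts tested. A p above the threshold does not show that the groups were equal, and the range just given is the measure of how far apart they lay.

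The 2 transcripts with the largest persisting increases were assembled isoforms. MERGE.30995.1 had values of 0, 2.71, 0, 0 and 1.15 in WKY replicates 1 to 5. In SHR it had 258, 269, 284, 434 and 257, and in SHR+Nef 289, 236, 328, 323 and 318. The lowest value of either SHR group was far above the highest WKY value. The SHR+Nef minus WKY difference was 7.62 (SE 0.36, limma adjusted p = 4.6e-06), beside 7.61 for SHR minus WKY and 0.01 for SHR+Nef minus SHR.

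MERGE.9062.3, the isoform listed for its locus, was listed at 0 in all 5 WKY libraries. Its values were 147, 53.6, 135, 118 and 158 in SHR, and 78.4, 124, 193, 141 and 132 in SHR+Nef. The SHR groups overlapped over most of their range, and neither touched WKY. The difference from WKY was 7.02 in SHR+Nef (SE 0.20, limma adjusted p = 6.79e-08) and 6.86 in SHR, and no fold is given because the WKY group is listed at 0.

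The 2 largest persisting decreases were annotated Ensembl transcripts. ENSRNOT00000052292 had 91.0, 162, 343, 264 and 84.0 in WKY, a wide spread within the group. It had 0.162, 0.374, 1.17, 1.15 and 0.634 in SHR, and 0, 0.140, 0.746, 0.585 and 0.951 in SHR+Nef. The highest value of either SHR group was far below the lowest WKY value. The difference from WKY was -6.83 in SHR+Nef (SE 0.40, limma adjusted p = 1.61e-05) and -6.63 in SHR.

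ENSRNOT00000079520 was more even in WKY, with 17.9, 27.4, 26.2, 28.3 and 24.5. In SHR it was listed at 0 in 3 libraries, with 2.31 in replicate 2 and 3.01 in replicate 5, and in SHR+Nef it was at 0 in 4 libraries with 1.84 in replicate 4. The groups did not overlap with WKY in either comparison. The differences were -4.38 in SHR+Nef (SE 0.30, limma adjusted p = 4.79e-05) and -3.93 in SHR. The 2 Ensembl transcripts reached the minimum value in too few SHR and SHR+Nef libraries for a test between these groups.

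**Figure D3:**
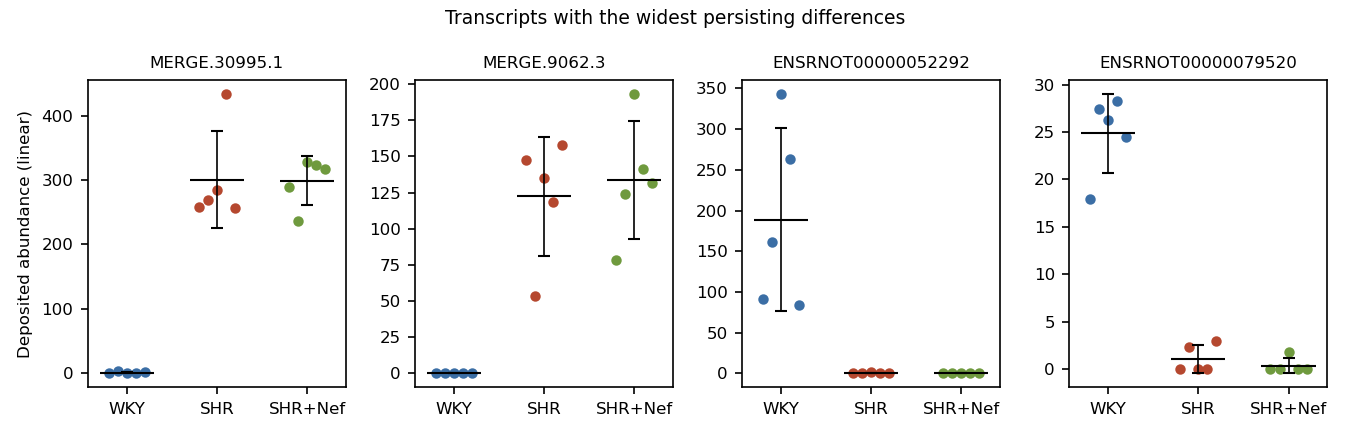
Deposited abundance on a linear axis for the 2 transcripts with the largest persisting increase and the 2 with the largest persisting decrease, 1 point per library (5 per group), with the group mean as a horizontal line and the SD as a bar. The left pair lies near 0 in WKY and between 53.6 and 434 in the SHR groups, and the right pair lies at 17.9 or more in WKY and at 3.01 or less in both SHR groups.

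Annotated and assembled transcripts both contributed. Assembled isoforms made up 58.0% of the transcripts tested, 61.2% of those called and 63.2% of those that persisted, namely 98 isoforms in 90 loci beside 57 Ensembl transcripts. In 5 loci, 2 or more isoforms persisted, and in 3 of these loci some isoforms were higher and others lower. In MERGE.2341, 3 isoforms were higher and 1 was lower. Opposite movement within a locus changes how its listed isoforms divide the sum, which is taken up below as isoform shares. What lies behind such movement was not tested.

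Among the 195 tested, 40 strain differences were not called with neferine, 13 higher and 27 lower in SHR. A smaller difference with neferine is built into this choice, and 18 of the 27 had an SHR mean under 0.5 and so were listed because SHR+Nef was higher. In 38 of the 40 the sign with neferine was that of the untreated strain difference and in 2 it was the opposite, and 27 had an unadjusted p under 0.05. Their median size was 2.13 between SHR and WKY. Taken in the direction of the strain difference, the median with neferine was 1.09 and the range -0.31 to 4.47. The SHR+Nef values of 30 of the 40 overlapped those of WKY. A direct comparison of SHR+Nef with SHR was possible for 17, and limma called 0 of them (smallest adjusted p = 0.841). A change of these transcripts by neferine was therefore not shown.

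Conversely, 260 transcripts were called in SHR+Nef against WKY and not in SHR against WKY, 163 higher and 97 lower. Of the 207 that could be tested in SHR, 200 had the same sign there and 158 had an unadjusted p under 0.05. Their median difference was 1.10 in size with neferine and 0.84, in the same direction, without it. The limma test between SHR+Nef and SHR called 2 of the 260, both isoforms of MERGE.1557.

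When the assembled isoforms of each locus were summed, 247 of 9526 loci differed between SHR+Nef and WKY (2.59%, limma adjusted p under 0.05), 158 higher (1.66%) and 89 lower (0.934%). The SHR+Nef and WKY sums of 241 of the 247 did not overlap, against 5.23% of all loci tested. As with transcripts, the call was made on these same sums and nearly implies separate groups, so this is no added trait. The untreated comparison called 169 of 9626 loci (1.76%), 77 higher (0.800%) and 92 lower (0.956%). It sums the isoforms listed for WKY and SHR, which are not in every locus those listed for SHR+Nef. Over transcripts listed for all 15 libraries it called 82 higher and 42 lower, so the balance of directions depends on the listing here too. Of the 169 strain differences, 123 could be tested with neferine and 95 of these persisted, 57 higher and 38 lower. They were 56.2% of all 169 strain differences, 77.2% of the testable ones and 38.5% of the 247, and 32 loci lower in SHR were not listed for SHR+Nef. The count was 61 without WKY replicate 1 and also 61 without WKY replicate 3, and 105 without SHR replicate 4.

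A single isoform was listed for 69 of the 95 persisting loci (72.6%) and 2 to 8 isoforms for 26, where a single isoform was listed for 47.2% of all loci tested. The median difference from WKY in SHR+Nef was 1.84 for the 57 higher loci and -1.17 for the 38 lower ones. Summation and single isoforms did not always give the same call: 182 of the 247 loci held a called isoform, 47 of the 102 with 2 or more isoforms held none, and 45 loci had a called isoform without a called sum. Of the 78 persisting sums that could be tested between SHR+Nef and SHR, limma called 0 (smallest adjusted p = 0.813), against 0.0419% of all loci (4 of 9557). With so low a background and with loci chosen for differing from WKY in both SHR groups, this is a description only.

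The largest increases of a locus sum were those of MERGE.9062, which equals the single isoform described above, and MERGE.8764. The sum of MERGE.8764 was 0, 2.52, 2.63, 1.62 and 0.825 in WKY. It was 165, 160, 119, 154 and 119 in SHR, and 156, 127, 145, 166 and 151 in SHR+Nef. The SHR groups were interleaved, and the SHR+Nef mean was 98.3-fold the WKY mean. The log2 difference was 6.04 (SE 0.32, limma adjusted p = 2.87e-06), beside 5.97 in SHR.

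The largest decreases were those of MERGE.27514 and MERGE.6635. MERGE.27514 had 22.0, 18.1, 11.2, 12.3 and 11.5 in WKY. It had 0.622, 0.600, 1.04, 0.651 and 0.718 in SHR and 0.552, 0.461, 0.555, 1.01 and 0.680 in SHR+Nef, a difference of -3.24 (SE 0.20, limma adjusted p = 6.87e-06) with neferine and -3.17 without. MERGE.6635, with 2 isoforms that both persisted as lower, kept a clear level in the SHR strain. The WKY sums were 90.4, 99.9, 76.4, 74.1 and 75.3. Untreated SHR had 20.7, 19.6, 18.1, 20.9 and 11.6, and SHR+Nef had 9.76, 12.2, 12.6, 15.9 and 20.03. The difference from WKY was -2.51 with neferine (SE 0.18, limma adjusted p = 2.33e-05) and -2.15 without, and the -0.36 between SHR+Nef and SHR did not pass (limma adjusted p = 0.813).

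**Figure D4:**
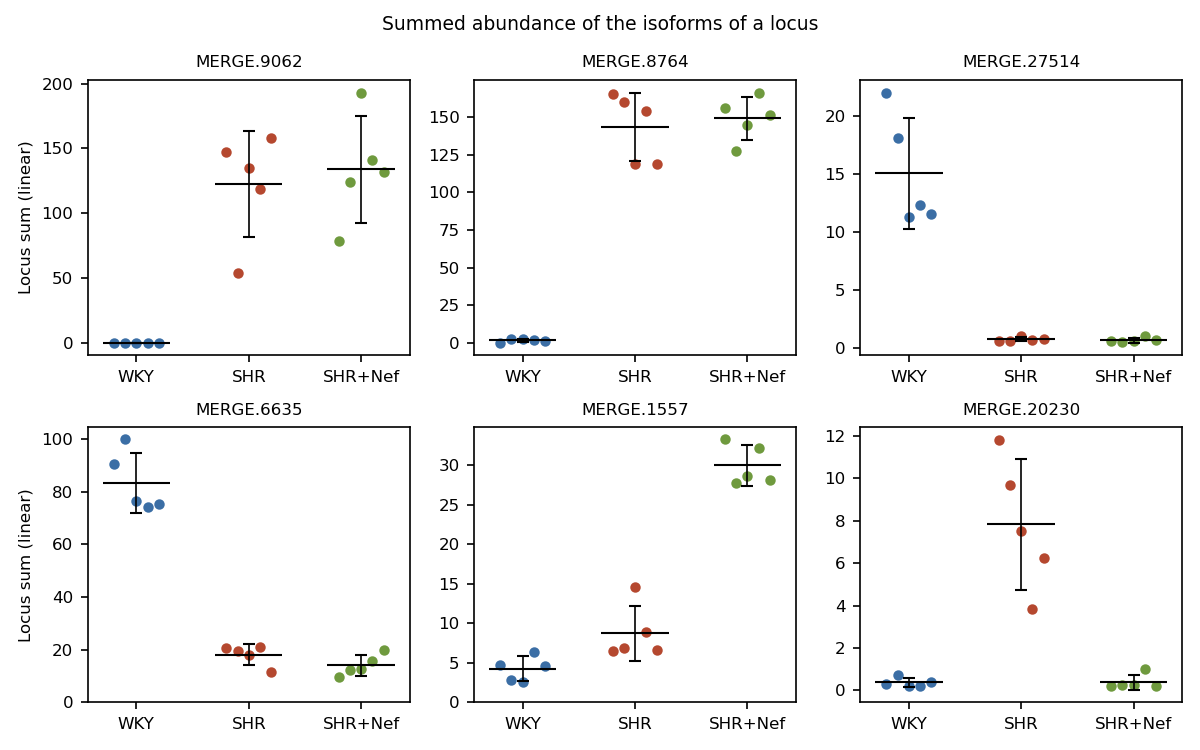
Summed abundance of the isoforms of a locus on a linear axis, 1 point per library (5 per group), with the group mean as a horizontal line and the SD as a bar. MERGE.9062, MERGE.8764, MERGE.27514 and MERGE.6635 have SHR and SHR+Nef together on 1 side of WKY, MERGE.1557 is highest in SHR+Nef (27.8 to 33.3), and MERGE.20230 is high in SHR alone (3.86 to 11.8).

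Among the locus sums, 4 were called between SHR+Nef and SHR, and only 1 of these, MERGE.20230, was also called between SHR and WKY. The 4 are named here after their values were seen, as are the isoforms and the locus MERGE.7851 below. The locus MERGE.20230, with 2 isoforms, carried a strain difference that was not seen with neferine. The WKY sums were 0.324, 0.747, 0.224, 0.218 and 0.413. Those of SHR were 11.8, 9.70, 7.51, 3.86 and 6.25, and those of SHR+Nef 0.210, 0.265, 0.240, 1.03 and 0.190. Every SHR value stood above every value of the other groups, and the WKY and SHR+Nef means were 0.385 and 0.387. The SHR minus WKY difference was 2.61 (SE 0.26, limma adjusted p = 0.000216), and that of SHR+Nef minus SHR was -2.63 (SE 0.27, limma adjusted p = 0.00994). With a value of 1 in only 1 of the 10 libraries, the locus fell outside the test of SHR+Nef against WKY. No isoform of the locus was called by itself in any comparison, so the result rests on the sum. The call between SHR+Nef and SHR was lost in 4 of 10 fits that each left out 1 library (highest limma adjusted p = 0.0541). Over all 19 alternatives it was lost in 5 (highest limma adjusted p = 0.387).

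MERGE.1557, with 5 isoforms, went the other way and moved further from WKY with neferine. The WKY sums were 4.74, 2.82, 2.59, 6.43 and 4.64. Those of SHR were 6.53, 6.85, 14.6, 8.93 and 6.69, and those of SHR+Nef 33.3, 27.8, 28.6, 32.2 and 28.1. The 3 groups did not overlap. SHR+Nef exceeded WKY by 2.61 (SE 0.20, limma adjusted p = 3.11e-05) and SHR by 1.73 (SE 0.21, adjusted p = 0.0132), whereas the 0.88 between SHR and WKY did not pass (adjusted p = 0.223). Of its isoforms, MERGE.1557.5 and MERGE.1557.2 each exceeded SHR by 1.73 in SHR+Nef, and for MERGE.1557.2 the SHR and WKY values overlapped. Of 10 fits that left out 1 library, the call against SHR was lost in 5 for the sum (highest limma adjusted p = 0.0725), in 8 for MERGE.1557.2 (0.165) and in 9 for MERGE.1557.5 (0.206).

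MERGE.29181 was the third, and here SHR+Nef lay below both other groups. The WKY sums were 16.8, 21.8, 16.6, 18.4 and 4.75. Those of SHR were 15.8, 27.1, 24.0, 36.8 and 14.2, and those of SHR+Nef 3.60, 4.72, 4.13, 4.71 and 4.09. WKY replicate 5 lay just above the SHR+Nef values and the other 4 WKY libraries far above them. SHR+Nef differed from SHR by -2.15 (SE 0.24, limma adjusted p = 0.00994) and from WKY by -1.53 (SE 0.33, adjusted p = 0.0369), and SHR did not pass against WKY (adjusted p = 0.701). The call against WKY was lost in 9 of 10 fits without 1 library (highest adjusted p = 0.0947) and the call against SHR in 4 of 10. MERGE.10526, the remaining locus, had too few libraries at the minimum for a test against WKY, whose sums ranged from 0.0466 to 9.38. Its SHR sums were 4.94 to 20.7 and its SHR+Nef sums 0.0160 to 0.519 (difference -3.15, limma adjusted p = 0.00994).

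Isoform shares describe how the summed abundance of the assembled isoforms of a locus is divided, apart from how large the sum is. Ensembl transcripts and isoforms not listed for both groups are not in the sum. A share is therefore a part of the listed assembled isoforms and not of all products of a gene. The share of an isoform is its abundance over the locus sum, given in percent, and a locus was called when the test over its isoforms passed at an adjusted p under 0.05 over all loci. Shares were tested in 2877 loci with 8102 isoforms, and 20 loci were called between SHR+Nef and WKY (0.695%), 11 with a leading isoform that was higher in SHR+Nef (0.382%) and 9 with a lower one (0.313%). The leading isoform of a locus is the one with the smallest p. On simulated data this test made more false calls than its nominal rate, so the adjusted p of a share locus may be too small. Between SHR and WKY the count was 35 of 2708 loci (1.29%), 26 of which could be tested with neferine. Between SHR+Nef and SHR limma called 0 of 2748 loci (smallest adjusted p = 0.186), while 116 had an unadjusted p under 0.05, and the log-ratio form of the test also called 0.

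In 11 loci the shift of isoform shares persisted, which is 55.0% of the 20 and 31.4% of the 35. The leading isoform differed from WKY by 13.1 to 67.5 percentage points, and by over 30 in 7 of the 11. It was higher in SHR+Nef in 6 loci and lower in 5. In all 11 its SHR+Nef shares lay wholly outside the WKY range, and 2.52% of all isoforms tested had separate groups. The leading isoform was chosen by its p on these same shares, so the separation is no added trait. The most abundant isoform of WKY was another than that of SHR+Nef in 9 of the 11 loci, and SHR and SHR+Nef had the same most abundant isoform in 10. The sum of the locus was itself called in 6 of the 11 and not in 5. Between SHR+Nef and SHR limma called 0 of the 11 (smallest adjusted p = 0.98), as it called 0 of all 2748 loci tested there. A small difference between the SHR groups is favoured by the choice of these loci, so this is a description. The count was 5 without WKY replicate 3, and 7 without either WKY replicate 2 or SHR+Nef replicate 2.

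MERGE.17697.8 was listed at 0 in all 5 WKY libraries. It made up 54.6%, 54.9%, 66.4%, 73.7% and 63.5% of the locus in SHR, and 66.7%, 65.5%, 53.9%, 63.7% and 61.5% in SHR+Nef (limma adjusted p of the locus in SHR+Nef against WKY = 5.01e-06). In WKY the isoform MERGE.17697.12 led instead, with 71.5% ± 15.9 (SD, n = 5), against 20.9% ± 2.75 in SHR+Nef. The sum of the listed isoforms was also higher, with a mean of 23.9 in SHR+Nef against 5.40 in WKY, a difference of 2.01 (limma adjusted p = 0.000161).

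In MERGE.28812 the isoform MERGE.28812.8 held 3.25%, 0%, 36.8%, 0.570% and 0% in WKY. It held 82.9%, 83.4%, 93.8%, 90.6% and 77.6% in SHR and 85.4%, 85.5%, 74.4%, 84.7% and 48.3% in SHR+Nef. WKY replicate 3 and SHR+Nef replicate 6 came nearest to each other, and the groups still did not overlap. The difference of 67.5 points was the widest of the 11 loci, but its call (limma adjusted p = 0.0393) was lost in 8 of 10 fits that left out 1 library, with adjusted p up to 0.125.

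MERGE.2341.4 was the main isoform of its locus in WKY and a minor one in the SHR strain. The WKY shares were 68.6%, 59.1%, 49.6%, 51.4% and 81.7%. Untreated SHR had 1.98%, 3.87%, 1.13%, 4.23% and 3.75%, and SHR+Nef had 4.44%, 1.55%, 1.30%, 2.35% and 8.77% (limma adjusted p of the locus = 0.00274). Higher shares were held instead by 3 isoforms, MERGE.2341.3, MERGE.2341.2 and MERGE.2341.1. Their mean shares were 2.92%, 2.79% and 5.00% in WKY and 34.4%, 31.1% and 18.9% in SHR+Nef. The sum of the locus did not pass (difference 0.41, limma adjusted p = 0.482).

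MERGE.18659.1 held 56.4% ± 13.4 (SD, n = 5) of its locus in WKY, 17.2% ± 4.96 in SHR+Nef and 17.2% ± 3.13 in SHR. By library, the WKY shares were 72.2%, 67.6%, 51.7%, 51.4% and 39.0%, and those of SHR+Nef 22.8%, 16.8%, 10.8%, 21.4% and 14.2%. MERGE.18659.2 led in both SHR groups, with means of 56.6% in SHR and 56.0% in SHR+Nef against 29.8% in WKY. The adjusted p of the locus was 0.0202 (limma), and the sum was lower as well by 0.79 (adjusted p = 0.0334). The share call was lost in 4 of 10 fits that left out 1 library.

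The locus with the highest abundance among the 11 was MERGE.7851, with a sum of 1279 ± 392 for WKY, 1069 ± 309 for SHR and 1229 ± 207 for SHR+Nef (mean ± SD, n = 5). Its sum did not pass (difference -0.02, limma adjusted p = 0.983), and its 2 isoforms divided it otherwise. The isoform MERGE.7851.2 held 0%, 0%, 2.48%, 0% and 4.41% in WKY. Untreated SHR had 24.8%, 25.9%, 26.6%, 23.2% and 21.8%, and SHR+Nef had 22.3%, 26.7%, 23.5%, 22.5% and 24.9%. The spread within each group was narrow beside the gap of 22.6 points (limma adjusted p of the locus = 0.0014). SHR+Nef and SHR differed by -0.468 points.

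**Figure D5:**
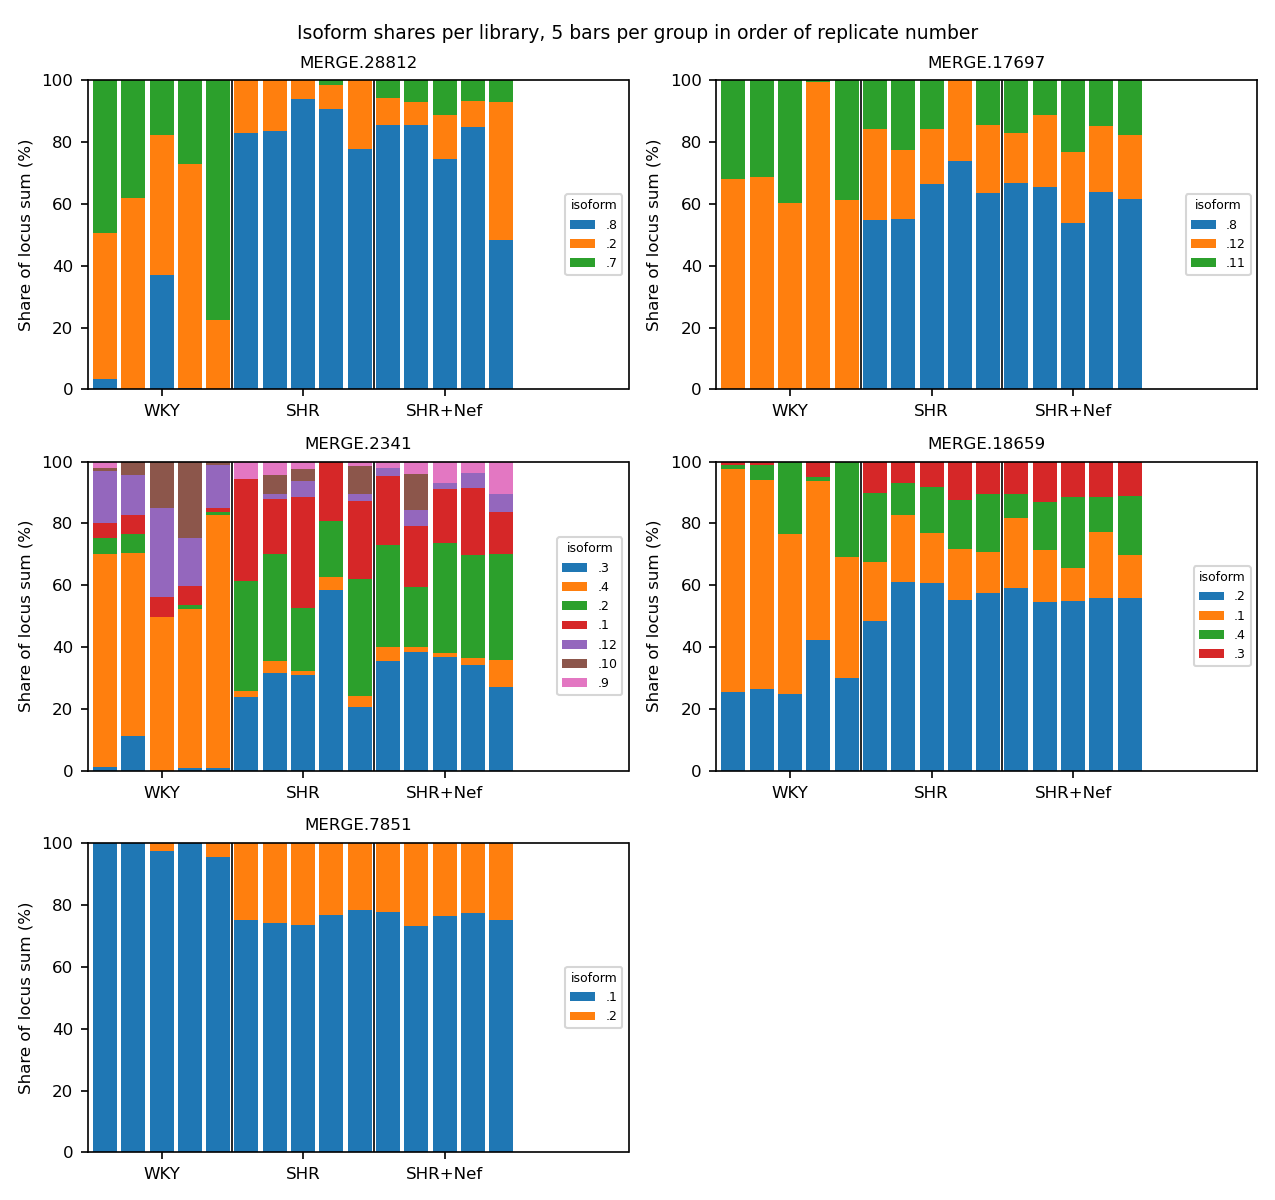
Share of each isoform in the locus sum (y axis, percent), 1 stacked bar per library and 5 per group in order of replicate number, for 5 loci whose shares were called against WKY in both SHR and SHR+Nef. By group means, SHR and SHR+Nef have the same most abundant isoform in each of the 5 loci, and MERGE.17697.8, at 0 in WKY, takes 53.9% to 73.7% in them.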

How the data were processed

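RNA-seq of 15 rat abdominal aortas gave 1 file per library. The authors deposited a signal, an abundance per transcript without naming its unit, counting tool or read depth in the files or labels. The submitters' processing notes name limma and the mouse build mm10, although the identifiers are those of rat, so no coordinates were used. Without read counts, no count test, counting interval or detection limit could be given.

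Testing covered transcripts listed for both groups that reached 1 in 5 or more of the 10 libraries. The fit was limma 3.58.1 on log2(value + 1) (R 4.3.3; trend and robust options, two-sided, Benjamini-Hochberg over all features, threshold 0.05), with 2 groups per fit. Differences are therefore on the log2(value + 1) scale, which understates changes of low transcripts. Locus sums add the isoforms listed for both groups. Shares, for loci with a sum of at least 1 in every library, were tested as the arcsine of their square root, with Simes per locus. The smallest SD of log2 differences between 2 libraries was 0.901, so none was a copy. The tests were tried on simulated data, where the share test made more false calls than its nominal rate. At each level the 2 higher and 2 lower persisting features with the largest difference and groups that do not overlap are described, and others are said to be chosen later. Members, comparisons and rules were chosen with earlier results of these data known. Gene lists and cell type markers could not be used without gene names. P-values set a group difference against the spread between libraries, with variances moderated across features by limma. Each rat gave 1 library, so differences between rats and between library preparations cannot be told apart. Figures used matplotlib 3.10.9 under Python 3.11.15.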

Additional observations from a re-analysis of the deposited data

Results flagged for a closer look

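A search of 45 sets of 5 libraries for a single library far from the others found 8. The nominal rate of the cutoff is 5% of sets. That rate need not hold for values listed mostly at 0, and the sets share libraries, so the 8 is not compared with chance. In SHR, replicate 4 was far from the rest by summed abundance (746274, others 504981 to 565896), by the number of common transcripts at 0 (8259, others 2560 to 3507) and by its median rank correlation with its own group (0.645, others 0.743 to 0.757). It was also apart in MERGE.30995.1, with 434 against 257 to 284 in the other SHR libraries. In WKY replicate 1 the 10 most abundant transcripts took 27.1% of the summed abundance, against 15.7% to 18.6% in the other WKY libraries.

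ENSRNOT00000079520 was 1.84 in SHR+Nef replicate 4 and listed at 0 in the other 4 SHR+Nef libraries. For MERGE.27514, SHR replicate 3 had a locus sum of 1.04, and the remaining SHR libraries 0.600 to 0.718. The share of MERGE.28812.8 was 36.8% in WKY replicate 3 and 0% to 3.25% in the other WKY libraries.

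The contrast with WKY differed between treated and untreated SHR, by limma's direct test of SHR+Nef against SHR, for MERGE.1557.2 (1.73), MERGE.1557.5 (1.73), the sum of MERGE.1557 (1.73) and the sum of MERGE.29181 (-2.15), each on the log2 scale. Over 20 alternatives each, these calls were lost in 12 for MERGE.1557.2 (limma adjusted p up to 0.761), 14 for MERGE.1557.5 (up to 0.839), 6 for the sum of MERGE.1557 (up to 0.231) and 5 for that of MERGE.29181 (up to 0.387).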

How the results depend on the processing

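No value of a named feature changed direction. The balance of directions in SHR against WKY did change with 3 groups in 1 model, which takes only transcripts listed for all 15 libraries. It was 165 higher and 135 lower for transcripts, in place of 121 and 177. For locus sums it was 109 and 70, in place of 77 and 92. The 8 transcripts and locus sums named for the largest persisting differences kept their call in all 20 alternatives each. Over 445 alternative values of the named features, 374 kept their call and 71 lost it. Requiring a value of 5 in 5 libraries, which tests fewer features, left 188 transcripts and 112 locus sums called in SHR+Nef against WKY, 99 and 44 in SHR against WKY, 2 and 2 in SHR+Nef against SHR, and 70 and 30 persisting. Without a minimum, 374 locus sums were called in SHR+Nef against WKY, 289 in SHR against WKY, and 3 transcripts in SHR+Nef against SHR. With quantile normalization or all 3 groups in 1 model, 2 transcripts were called in SHR+Nef against SHR each. With 3 groups in 1 model 20 loci had shifted shares in SHR against WKY, and a locus sum of at least 5 gave 21 there and 1 in SHR+Nef against SHR. Restricting SHR against WKY to transcripts listed for all 15 libraries, an alternative chosen after seeing the data, gave 178 transcripts (103 higher, 75 lower) and 21 share loci, with 132 persisting transcripts. The cause was not tested.

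Leaving out 1 library at a time gave 292 to 390 transcripts, 186 to 234 locus sums and 12 to 23 share loci in SHR+Nef against WKY, and 223 to 335, 119 to 187 and 19 to 38 in SHR against WKY. In SHR+Nef against SHR it gave 2 to 11, 0 to 9 and 0 to 2, where the 11 and the 9 came without SHR replicate 5. Persisting counts ran from 102 to 179, 61 to 105 and 5 to 12.

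Same-numbered libraries of SHR+Nef and WKY did not deviate together (correlations of -0.0709, -0.0498, -0.000791 and -0.0262). Those of SHR and WKY had correlations of 0.00131, -0.0423, 0.0619, -0.0519 and 0.105. These values show no pairing by number but cannot exclude one, and the labels do not say whether the numbers pair the rats. With the replicate number as a block, SHR+Nef against WKY had 43 transcripts, 58 locus sums and 0 share loci (181 at unadjusted p under 0.05), SHR against WKY had 156, 110 and 14, SHR+Nef against SHR had 0 transcripts (1123 at unadjusted p under 0.05) and 1 locus sum, and 32, 32 and 0 persisted. SHR+Nef replicate 6 and WKY replicate 3 have no partner number, so in that fit they add nothing to the difference. Depth could not be assessed without counts.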
